A study of Arabidopsis thaliana with 12 samples.

Results

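AGL103, IAA31 and SPL, grouped under flower, spore and auxin regulation, are the 3 genes described here across wild type and toc90 mutant plants of Arabidopsis thaliana. They were found on the array by gene name, keeping only probes whose annotation lists exactly 1 gene. Each had 1 such probe, so none had to be chosen by its mean over all 12 readings, the measured value that the rule selects on where there are several. They are 3 of 691 genes on such probes, and the table held 3439 probes in all. The array also held 1 probe listing IAA31 with other genes, which was left out. The genes were proposed with earlier results of these data known, so their p-values describe these readings and are no independent support.

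Total RNA was measured with 1 channel per sample in 6 readings of wild type (WT) and 6 of toc90, both in ecotype Columbia 0, each group numbered 1 to 6. Per the labels, the mutant is impaired in bringing proteins across the outer envelope of the chloroplast. TOC90 is known as a GTPase of the TOC159 family, the receptors that receive precursor proteins at the chloroplast surface. The sources used here do not give the allele, tissue, age or growth conditions, or whether readings came from separate plants, so p-values measure only the spread between these readings, which may be technical. The deposited values are intensities between 0 and 100 with a floor at 0, and their scale is otherwise unknown. The number of arrays limits their precision.

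Aux/IAA proteins such as IAA31 are repressors of the auxin response: they bind auxin response factors and hold their target genes off, and auxin leads to their destruction through receptors of the TIR1/AFB family. IAA31 is an unusual member whose destruction motif departs from the usual form. SPL, also called SPOROCYTELESS or NOZZLE, is a nuclear repressor needed to form the spore mother cells of anther and ovule, and in the flower it is switched on by the MADS-box protein AGAMOUS. Raised SPL activity is known to lower YUCCA genes of auxin synthesis, which links it to auxin. AGL103 belongs to the MADS-box family of DNA-binding proteins, and a role of AGL103 in the flower was not tested here.

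AGL103 was higher in toc90, and IAA31 and SPL were lower. In mean deposited value AGL103 rose 1.85-fold, IAA31 fell to a level 1.82-fold below WT, and SPL fell to a level 5.0-fold below WT, with 1 toc90 reading at 0. After normalization with zeros kept, the folds were 2.42, 1.56 and 1.66, and the size for SPL is not fixed so near the floor. The rise of AGL103 was called under every processing tried, while the falls of IAA31 and SPL were not. In bulk RNA such as this, fewer cells of a type and less RNA per cell cannot be told apart.

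**Figure D1:**
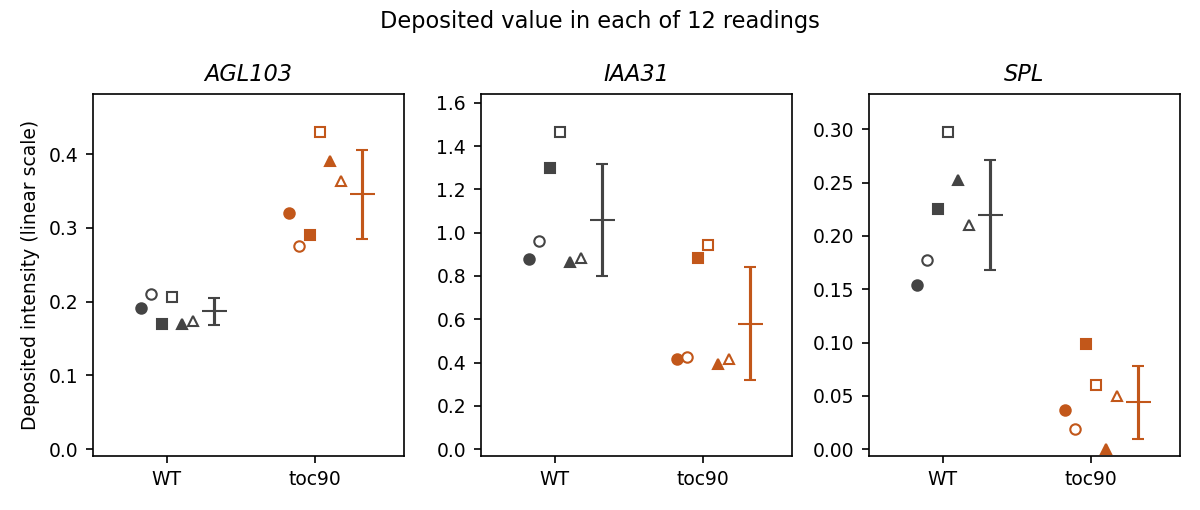
Deposited intensity (linear scale) of AGL103, IAA31 and SPL in the 6 WT and 6 toc90 readings. Circles are numbers 1 and 2, squares 3 and 4, triangles 5 and 6, filled for the odd number, and the bar beside each group is the mean with its SD. The toc90 readings of AGL103 lie at 0.276 to 0.43, above all WT readings, those of SPL at 0 to 0.0984, below all WT readings, and those of IAA31 at numbers 3 and 4 reach into the WT range.

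The columns differed between the groups before any gene was considered. Probes listed at 0 made up 13.5% to 17.3% of a WT column and 20.3% to 33.4% of a toc90 column. The column median lay at 0.151 to 0.157 in WT and 0.0593 to 0.0687 in toc90, whereas the column mean overlapped, at 0.768 to 1.03 and 0.736 to 1.06. The differences below are therefore given both as deposited and after quantile normalization of log2(value + 0.0683), with zeros kept. The offset of 0.0683 is the lower quartile of all positive values, and adding it shrinks log2 differences of dim genes. The quantile step moves them as well. With this offset, the log2 differences of AGL103, IAA31 and SPL were 0.69, -0.85 and -1.40 without that step. They were 1.27, -0.65 and -0.73 with it. TOC90 had 0 annotated probes, so it gave no check of the labels.

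AGL103 read 0.191, 0.21, 0.169, 0.206, 0.17 and 0.174 in WT numbers 1 to 6. In toc90 it read 0.32, 0.276, 0.291, 0.43, 0.391 and 0.364. All 6 toc90 readings lay above every WT reading, and no reading of either group was at 0. Its mean went from 0.187 ± 0.0182 to 0.345 ± 0.0602 (SD over 6 readings each), with a two-sided exact permutation p of 0.00216, the smallest that 924 assignments can give. As deposited, 1.52% of the 3161 tested probes had every toc90 reading above every WT reading, and 21.7% had every one below.

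The normalized log2 difference of AGL103 was 1.27 ± 0.13 (SE, limma Benjamini-Hochberg adjusted p = 1.29e-05). A call here means an adjusted p under 0.05 over all tested probes. Of these, 8.83% were called higher and 11.4% lower in toc90. By size of the rise AGL103 stood 24th of the 3161, and the third of the 643 tested single-gene probes. Within each number, the deposited toc90 value lay between 132% (number 2) and 230% (number 5) of WT, and it was higher in 6 of 6 numbers. The share of all tested probes higher in 6 of 6 numbers was not counted. With neighbouring numbers averaged to 3 values a group, the difference was still called (limma adjusted p = 0.00666), in a fit that called 2.37% of probes higher. The exact permutation p over those averages was 0.1, the smallest that 20 assignments allow.

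IAA31 read 0.878, 0.961, 1.3, 1.47, 0.866 and 0.883 in WT. In toc90 it read 0.415, 0.428, 0.885, 0.943, 0.395 and 0.418. Numbers 3 and 4 were the highest in both groups. The groups overlapped at those numbers: 4 of 6 toc90 readings fell under the lowest of WT, and toc90 numbers 3 and 4 lay among the lower WT readings. Its mean went from 1.06 ± 0.258 to 0.58 ± 0.259 (SD over 6 readings each), with a two-sided exact permutation p of 0.0238.

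The normalized log2 difference of IAA31 was -0.65 ± 0.18 (SE, limma adjusted p = 0.0193). Compared within its own number, the deposited toc90 value was lower in 6 of 6, at 44.5% to 68.1% of WT. How many of all tested probes were lower in 6 of 6 was not counted. The 2 readings at numbers 3 and 4 averaged 66.1% of WT, against 45.8% for numbers 1 and 2 and 46.5% for numbers 5 and 6. The column means of numbers 3 and 4 were higher as well, at 1.03 in WT and 1.06 in toc90, against 0.784 and 0.746 for the other numbers. The part of that in the readings of IAA31 was not tested. Median scaling, which divides each column by its median of positive values, left the fall at -0.22 (limma adjusted p = 0.349). With neighbouring numbers averaged it was not called (limma adjusted p = 0.162), and the exact permutation p was 0.2.

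SPL lay near the floor in toc90. It read 0.154, 0.177, 0.225, 0.298, 0.252 and 0.21 in WT. In toc90 it read 0.0366, 0.0189, 0.0984, 0.06, 0 and 0.0495. None of the toc90 readings reached the lowest of WT, and number 5 of toc90 was listed at 0. Its mean went from 0.219 ± 0.0518 to 0.0439 ± 0.0342 (SD over 6 readings each), with a two-sided exact permutation p of 0.00216, again the smallest possible.

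Many probes at the WT level of SPL showed the same separation. Of the 615 tested probes with a WT mean between 0.2 and 0.4, 35.8% had every toc90 reading below every WT reading, and their median toc90 mean was 52.7% of WT. The share was 7.65% of 1006 probes under 0.1 and 30.5% of 371 probes between 0.4 and 0.8. It was 14.4% of 208 probes between 0.8 and 1.6, where IAA31 lay, with a median of 84.5% of WT. In the range from 0.1 to 0.2, where AGL103 lay, 31.5% of 720 probes had every toc90 reading below WT and 0.417% had every one above, with a median of 44% of WT. AGL103 therefore rose in a range of levels in which deposited values were mostly lower in toc90. How far the lower values at this level bear on SPL was not tested.

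The normalized log2 difference of SPL was -0.73 ± 0.24 (SE, limma adjusted p = 0.0433). After normalization 5 of 6 toc90 readings were under the lowest of WT, and number 3 of toc90 was not. By the same measure 6.8% of tested probes had all 6 below, and the larger share with at least 5 below was not counted. Within each number the deposited toc90 value stayed lower in 6 of 6, with the highest share at number 3 (43.7% of WT). The normalized log2 difference at number 3 was -0.14. The share of all tested probes lower in 6 of 6 numbers was not counted. The call was lost with the number as a replicate block (limma adjusted p = 0.0571) and with neighbouring numbers averaged (0.143), a fit that called 5.44% of probes lower. It was also lost when any 1 of 9 readings was left out (limma adjusted p = 0.0534 to 0.0904): WT numbers 2 to 6 and toc90 numbers 1, 2, 5 and 6. Without toc90 number 5, the reading at 0, the difference was -0.54.

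**Figure D2:**
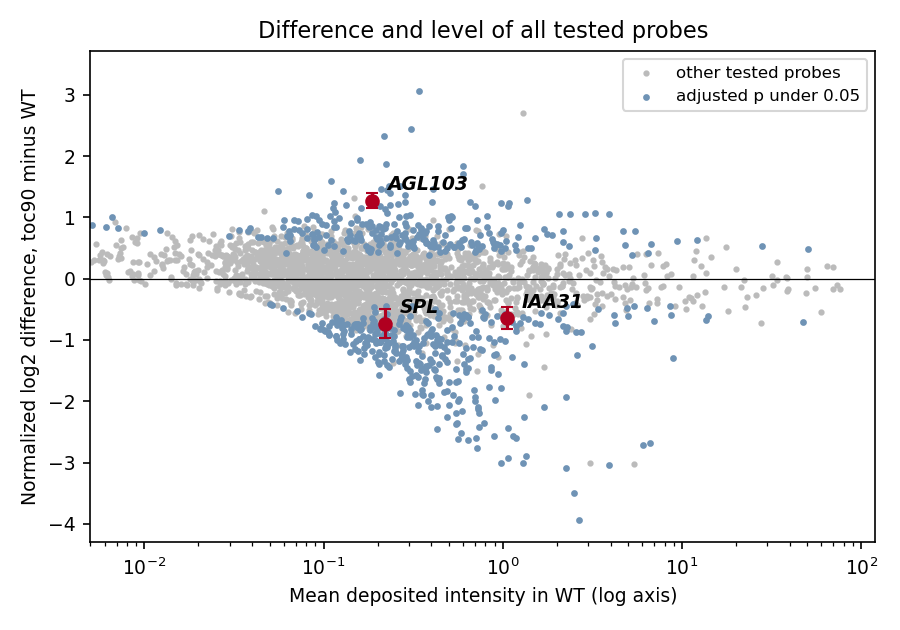
Normalized log2 difference (toc90 minus WT) of the tested probes against their mean deposited intensity in WT (log axis). Grey points did not pass and blue points passed an adjusted p of 0.05, and red points with SE bars are AGL103 (1.27), IAA31 (-0.65) and SPL (-0.73). The 190 tested probes with a WT mean under 0.005 lie outside the plot, all between 0.08 and 0.99 in log2.

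The place of a gene among all probes of its own reading does not depend on a factor by which a column was scaled, and was added as a measure after the values had been seen. It does depend on the other probes of the column, and quantile normalization rests on the same order, so it is no independent measure. With more zeros and lower medians in the toc90 columns, an unchanged value would stand at a higher percentile there. AGL103 moved from percentile 56.1 ± 3.29 in WT to 79.5 ± 1.88 in toc90 (SD over 6 readings each), with a two-sided exact permutation p of 0.00216 and without overlap of the groups. By this measure 6.93% of tested probes had every toc90 reading above every WT reading and 6.8% every one below. IAA31 moved from percentile 89.8 ± 0.792 to 84.6 ± 3.37 (exact permutation p = 0.00433), with 5 of 6 toc90 readings below every WT reading. SPL moved from percentile 60.3 ± 6.67 to 39.9 ± 16.3 (exact permutation p = 0.00866), also with 5 of 6 below. The share of tested probes with at least 5 of 6 below was not counted. With neighbouring numbers averaged, the exact permutation p of the percentile was 0.1 for AGL103, 0.1 for IAA31 and 0.2 for SPL, and 0.1 is the smallest that 20 assignments allow. The toc90 readings of SPL ran from 10.6 to 57, where 10.6 is the tied middle rank of the reading at 0 and is set by the share of zeros in that column. The other 5 ran from 34.1 to 57. In order of mean value over all 3439 probes AGL103 went from rank 1518 in WT to rank 687 in toc90, IAA31 from 341 to 498 and SPL from 1322 to 2044.

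**Figure D3:**
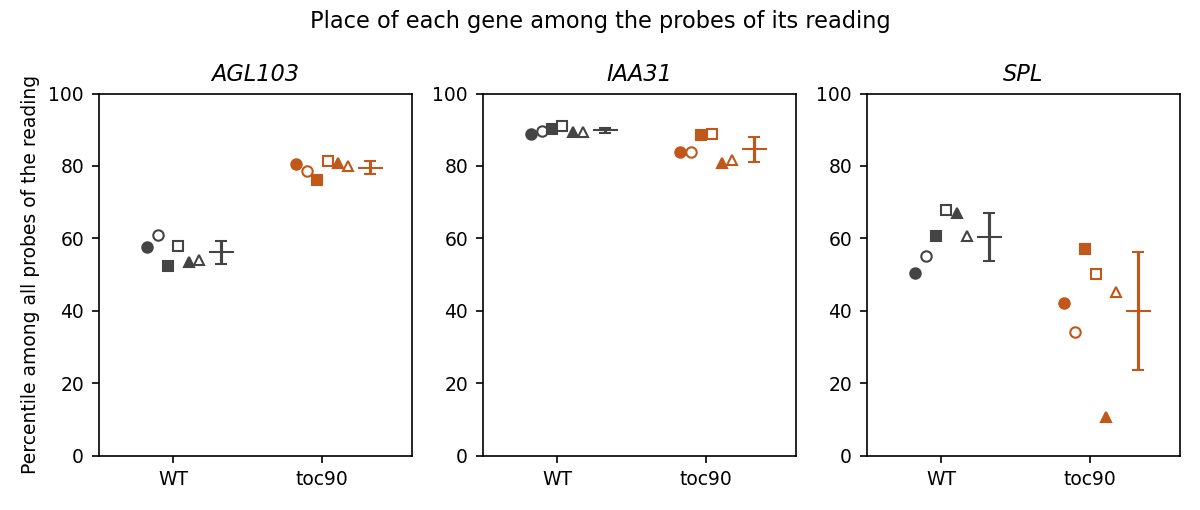
Percentile of AGL103, IAA31 and SPL among all probes of the same reading, for 6 WT and 6 toc90 readings, with symbols as in the plot of deposited values and bars for mean and SD. The AGL103 readings lie at 52.5 to 61 in WT and at 76.2 to 81.4 in toc90, IAA31 stays above 80 in all readings, and the toc90 readings of SPL spread from 10.6, a reading at 0 tied with all other zeros, to 57.

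**Figure D4:**
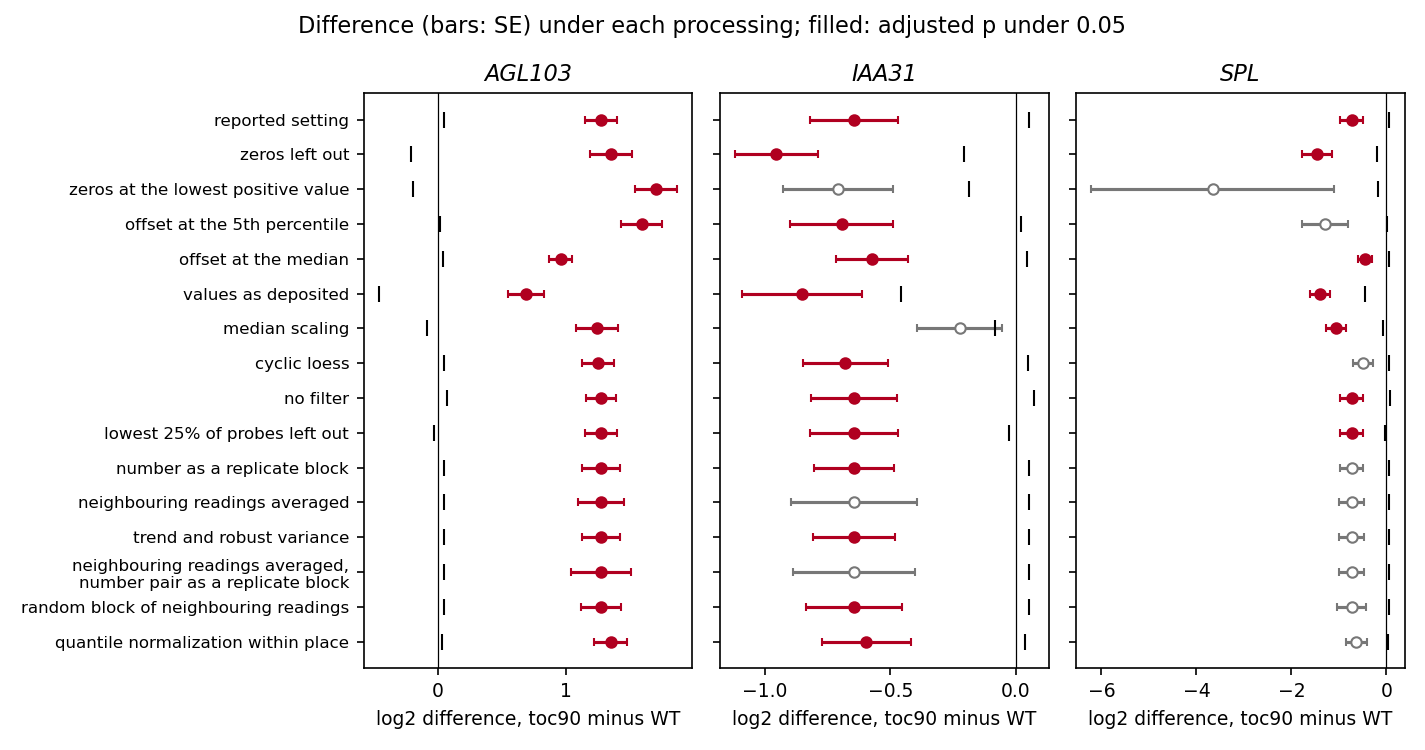
The log2 difference (toc90 minus WT) of each gene under the reported setting and 15 alternatives, with SE bars. Filled red points have an adjusted p under 0.05, open grey points do not, and black ticks mark the median of all probes tested in that setting. All 16 points of AGL103 are filled, against 12 of IAA31 and 7 of SPL, and no point changes sign.

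Among themselves, IAA31 and SPL varied together over the readings and AGL103 did not follow them. Over the 12 readings of normalized values, Pearson's r was 0.86 between IAA31 and SPL (Spearman's rho 0.87). About the group means, which removes the difference between the genotypes, r was still 0.72. AGL103 had r of -0.78 with IAA31 and -0.72 with SPL over all 12 readings, and -0.18 and -0.38 about the group means. These are descriptions over 12 readings whose neighbouring numbers resemble each other, in WT more than in toc90. The high readings at numbers 3 and 4 were shared by IAA31 in both groups and by SPL in part.

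The genes with the most similar pattern were taken from the 643 tested single-gene probes by r over the 12 readings. For AGL103 these were AT1G65090 (r = 0.96), AT1G17160 (0.94), which encodes a pfkB-type sugar kinase, and AT1G33250 (0.94). AT1G65090 was also dim, going from 0.122 ± 0.0157 in WT to 0.163 ± 0.0344 (SD, n = 6 each). About the group means r was 0.65 for AT1G65090, 0.01 for AT1G17160 and 0.23 for AT1G33250, so the likeness of the last 2 lay in the difference between the groups. For IAA31 they were AT1G67820 (0.9), a protein phosphatase of the 2C type, AT3G57570 (0.89) and AT5G11010 (0.89), with r about the group means of 0.74, 0.72 and 0.82. For SPL they were AT3G57120 (0.89), IAA31 itself (0.86) and AT5G52810 (0.86), known as SARD4 of pipecolic acid synthesis. AT3G57120 went from 0.245 ± 0.0712 to 0.0284 ± 0.0304 (SD, n = 6 each).

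Few genes listed as relatives of the 3 genes could be read from single-gene probes. The MADS-box list, matched by gene name only, gave 2 besides AGL103, namely AGL26 (AT5G26880) and AGL54 (AT5G27090). Whether these loci encode MADS-box proteins was not checked. AGL26 read 0.213 to 0.268 in WT (median 0.231) and 0.173 to 0.312 in toc90 (median 0.209), so its groups overlapped. It was called higher after quantile normalization (log2 0.52 ± 0.14, SE, limma adjusted p = 0.0209), but its log2 difference was -0.091 as deposited (0.635). It was also not called with neighbouring numbers averaged (limma adjusted p = 0.143), with those averages and the number pair as a block (0.181), with a random block of neighbours (0.0843), with zeros left out (0.195), with normalization by place in the order of probe IDs (0.219) or without WT number 3 (0.0501). AGL54 read 0.218 to 0.416 in WT (median 0.297) and 0.157 to 0.248 in toc90 (median 0.195), overlapping as well. It was not called (log2 0.09 ± 0.16, SE, limma adjusted p = 0.699), but as deposited it stood at -0.48 and was called lower (0.0368). Of the 3 genes on this list 2 passed as higher and 0 as lower, where 8.83% and 11.4% of all tested probes did. Their median of 0.52, against 0.05 for all tested probes, is the value of AGL26 alone. As deposited, 1 of the 3 was called higher (AGL103) and 1 lower (AGL54). In that fit 92 of the 3161 tested probes were called higher and 1278 lower. Relative to its median difference over probes (-0.46), AGL54 stood at -0.02, AGL26 at 0.37 and AGL103 at 1.15. In the lists for auxin response and for sporogenesis, IAA31 and SPL were the only genes on single-gene probes. The lists for auxin transport and synthesis and for flower identity outside the MADS-box family had 0.

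Lists of flower, pollen, seed and root markers also had 0 genes on single-gene probes, so the share of such tissue in the RNA was not tested. Of the green tissue markers 5 were present, and none of their 12 readings each was at 0. Their WT means ran from 2.43 (PRK, an enzyme of the Calvin cycle) to 49.1 (PSBW, of photosystem II) on the deposited scale, which sets no level of 1 probe against another. After normalization 0 of these 5 passed in either direction, where 8.83% of all tested probes were called higher and 11.4% lower (limma adjusted p = 0.0798 to 0.601, log2 -0.24 to 0.41).

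Probe IDs give an order of the probes, used here without a layout of the array, and calls over all probes varied along it. With IDs grouped in blocks of 96 and blocks in runs of 3, a grouping taken from earlier results of these data, SPL lay in the second place and AGL103 and IAA31 in the third. In the place of SPL 15.8% of tested probes were called lower, in that of AGL103 and IAA31 12.3%, and in the remaining place 6.05%. Higher calls made up 8.57% of the place of AGL103, 4.98% of that of SPL and 13% of the remaining place. With quantile normalization within each place, AGL103 stood at 1.35 (limma adjusted p = 1.1e-05), IAA31 at -0.60 (0.0321) and SPL at -0.63 (0.0677). The part of the place in these differences was not tested further.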

How the data were processed

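The deposited values are array intensities, 1 channel per sample per the labels, with the maximum of 100 reached in 5 of 12 columns within 1e-06. The sources used here do not give the scanner, background step, scaling or gene build of the authors. Groups and numbers came from the sample titles, and 0 columns lacked a sample. Probes were named through the platform annotation, updated through RefSeq's table for TAIR10.1: 692 of 3439 had 1 gene (690 matched), 870 several, and 1877 were unnamed here.

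Values were quantile normalized as log2(value + 0.0683), zeros kept. The 3161 probes above 0 in at least 3 columns entered a moderated linear model (limma 3.58.1, R 4.3.3; lmFit, eBayes), with two-sided p-values adjusted after Benjamini and Hochberg and a threshold of 0.05. Zeros were kept because leaving them out raises the means of dim probes in the group with more zeros. Mean deposited values were compared by exact permutation of the readings, without pairing by number. The fit was tested on simulated data. Figures used matplotlib 3.10.9 in Python 3.11.15.

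Readings of the same number deviated together across the groups, with correlations over probes of 0.14 to 0.32 (other numbers at most 0.08). The number was read as a pairing in the comparisons within each number and in the fit with a replicate block. The reported fit and the exact permutations did not use it, so their p-values ignore this pairing. With the block, the limma adjusted p was 0.000531 for AGL103, 0.021 for IAA31 and 0.0571 for SPL. The pairing comes from the data, and the labels give only the number. Neighbouring numbers deviated together in WT (0.35 to 0.64), less so in toc90 (-0.07 to 0.26).

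The members and lists were chosen with earlier results of these data known. Named are the 3 genes, the 3 most similar genes of each and list genes on single-gene probes. The alternatives were other treatments of zeros, offsets, scalings and filters, the replicate block, averaged neighbours, another variance model and each reading left out.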

Additional observations from a re-analysis of the deposited data

How the results depend on the processing

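AGL103 was called in 27 of 27 refits (log2 0.69 to 1.70), IAA31 in 23 and SPL in 9, and no difference of the 3 changed sign. The random block, the averages with a number pair as block, the normalization within place and the percentiles were chosen after seeing the data. Causes were not tested. Calls over all probes were 639 (279 higher, 360 lower), and 1370 as deposited (92 and 1278), 1015 with median scaling, 314 with zeros raised to the lowest positive value (175 and 139), 643 with zeros left out (186 and 457), 247 with neighbours averaged (75 and 172), 312 with those averages and the number pair as a replicate block (84 and 228), and 370 with a random block of neighbours. As a replicate block, the number gave 610, and among the 3 genes it changed no call other than that of SPL (-0.73, limma adjusted p = 0.0571). Leaving out each reading gave 488 to 684 calls, AGL103 at 1.22 to 1.33, IAA31 at -0.73 to -0.56 and SPL at -0.85 to -0.54.

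IAA31 was not called with median scaling (-0.22), zeros at the lowest positive value (-0.71, limma adjusted p = 0.0628), neighbours averaged (-0.65) or those averages with the block (-0.65, 0.123). SPL was not called with zeros at the lowest positive value (-3.66, limma adjusted p = 0.358), an offset of 0.0137 (-1.29, 0.0874), cyclic loess (-0.49, 0.123), trend and robust variance (-0.73, 0.0509), neighbours averaged (-0.73), those with the block (-0.73, 0.102), a random block (-0.73, 0.138) or normalization within place (-0.63). Its size ran from -0.45 with an offset of 0.164 to -3.66, so it is not fixed so near the floor. The median of all probes moved from 0.05 to -0.46 as deposited and -0.21 with zeros left out. Relative to that median, as deposited, AGL103 stood at 1.15, IAA31 at -0.40 and SPL at -0.94, and with zeros left out at 1.56, -0.75 and -1.25. AGL26 turned to -0.091 as deposited, and AGL54 to -0.48 as deposited and -0.19 with zeros left out.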
